A study of Drosophila melanogaster with 16 samples.

Results

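Whole Drosophila melanogaster embryos that had been heat-shocked were compared with untreated embryos, over all probe sets of the array other than its controls. The heat-shocked side holds 11 of the 16 arrays, in 3 groups that were given equal weight: hsp-otd (n = 4), hsp-Otx2 (n = 4) and wild type (n = 3). The untreated side holds 5 arrays of wild type. The hsp-otd embryos were of line 5A, which carries the fly homeobox gene otd (current symbol oc) behind a heat shock promoter. The hsp-Otx2 embryos carry human Otx2 behind the same kind of promoter. Both wild-type groups were Oregon-R. Every heat-shocked group was held at 37 °C for 25 min and then at 25 °C for 25 min, after a collection of 12 h and ageing of 4 h. All embryos were at stages 10 to 17, and RNA came from 200 mg of pooled whole embryos. For the untreated embryos the labels give neither a collection nor an ageing time, so heat shock and age within these stages cannot be told apart. In 2 of the 3 heat-shocked groups the transgenic line differs from the untreated embryos together with the heat. The replicates are not said to be separate collections, so a p-value here speaks only of array-to-array spread, which may be technical.

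The heat shock response is carried by heat shock factor, a transcription factor that trimerises on heating and binds elements upstream of the heat shock genes. Their products are chaperones. Hsp70-type proteins hold and refold unfolded proteins, the small heat shock proteins keep them from aggregating, and Hsp90-type proteins finish the folding of kinases and receptors. In Drosophila, transcription of most other genes is known to fall during the shock and to return in recovery. Stages 10 to 17 run from the extended germ band to the hatching larva and include the laying down of the larval cuticle.

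Values are normalized intensities, raised to a floor of 20. A level is the geometric mean of a group's arrays, and the heat-shocked level that of the 3 groups' levels. A fold change is the log2 ratio of heat-shocked over untreated levels with its standard error (SE) from limma. Where only some arrays of a group were above the floor, the group's level and fold change depend on the floor. A probe set passed a comparison at a Benjamini-Hochberg adjusted p from limma below 0.05 over all 12301 probe sets tested. The averaged comparison is the mean of the 3 group fold changes. "In all 3 groups" means that a probe set passed in each group's own comparison with the same sign. These 3 comparisons share the 5 untreated arrays.

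Deposited array means ran from 460.2 to 1016.4. The first principal component of the normalized values held 28.6% of the variance and separated untreated arrays 1 to 3 (60.4 to 73) from arrays 4 and 5 (36.2 and 28.4). On it hsp-Otx2 arrays stood at -72.6 to -64.3 and hsp-otd arrays at -24.8 to -20.1. Heat-shocked wild type, at 18.8, 35 and 51.4, overlapped the untreated arrays. The largest component thus set the transgenic lines apart from both wild-type groups and did not separate heat-shocked from untreated wild type. With arrays 1 to 3 as the only controls, 523 probe sets were higher and 435 lower in all 3 groups. With arrays 4 and 5 alone the counts were 448 and 439, against 458 and 511 with all 5. Neuronal elav, at 997, 496 and 757 in the heat-shocked groups and 1009 in untreated wild type, was well above the floor. The probe set for Mhc, the muscle myosin heavy chain, stood near it in hsp-otd (35.9) and untreated embryos (46.6), although 27 of 35 sarcomere genes were above the floor in every heat-shocked array and 28 in every untreated one.

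The gene that the hsp-otd transgene carries, oc, was read first. The normalized intensity of oc (probe set OC_at) was 6448, 6246, 6213 and 6385 in the 4 hsp-otd arrays. It was 127, 105, 121 and 96.6 in the hsp-Otx2 arrays, and 235, at the floor and 76.7 in heat-shocked wild type. In untreated wild type 4 of 5 arrays were at the floor and the other stood at 21.2. The fold changes, which depend on the floor, were 8.29 (SE 0.47), 2.47 (SE 0.47) and 1.81 (SE 0.52), with limma adjusted p-values of 1.23e-09, 0.000466 and 0.018. The groups overlapped, because 1 heat-shocked wild-type array was at the floor.

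Averaged over the 3 heat-shocked groups, 4075 probe sets differed from untreated wild type (33.1%). Of these, 2026 were higher (16.5%) and 2049 lower (16.7%). A change of at least 2-fold was reached by 879 of the higher and 740 of the lower ones. Fewer probe sets, 969 (7.88%), passed in all 3 groups. These were 458 higher probe sets (3.72%) and 511 lower ones (4.15%), which are 22.6% and 24.9% of those called in the averaged comparison. Group by group, the hsp-otd embryos had 1931 higher (15.7%) and 1710 lower (13.9%), 29.6% in all. The hsp-Otx2 embryos had 2281 higher (18.5%) and 2636 lower (21.4%), 40% in all. Heat-shocked wild type had 1269 higher (10.3%) and 1501 lower (12.2%), 22.5% in all. A further 489 probe sets passed with opposite signs in different groups. When the 11 heat-shocked arrays were taken as 1 group, 982 were higher and 1036 lower. Without normalization 911 were higher and 822 lower on average, and 108 and 177 in all 3 groups.

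Of the probe sets higher in all 3 groups, 200 were at least 2-fold higher in each group, 80 at least 4-fold and 24 at least 8-fold. Their median fold change was 1.25 in hsp-otd, 1.41 in hsp-Otx2 and 1.19 in heat-shocked wild type. Of those lower in all 3 groups, 191 were at least 2-fold lower in each, 72 at least 4-fold and 20 at least 8-fold, with medians of -1.05, -1.24 and -1.05.

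Without any model, all 11 heat-shocked values lay above all 5 untreated values for 340 probe sets (2.76%) and below them for 515 (4.19%), 855 in all (6.95%). These take in 322 of the 458 higher and 415 of the 511 lower probe sets (70.3% and 81.2%). The plot of counts sets these numbers side by side.

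**Figure D1:**
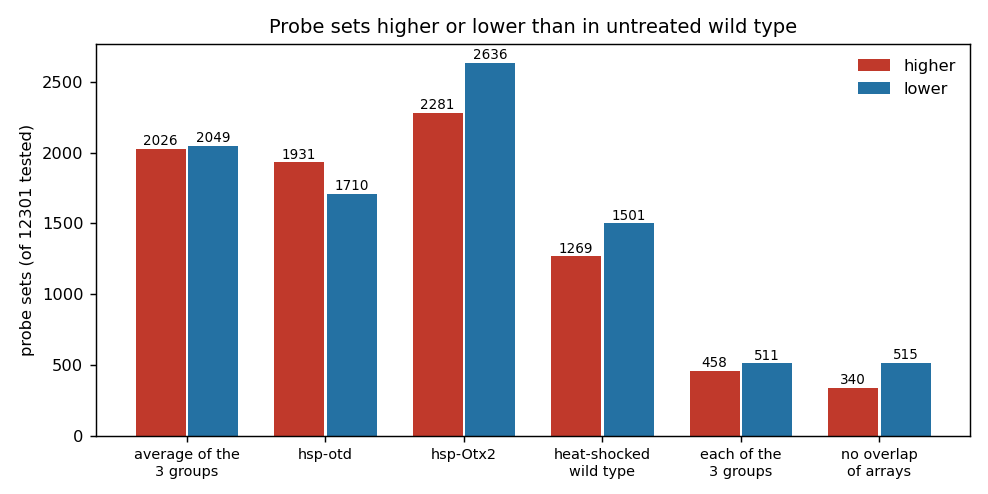
Number of probe sets, of 12301 tested, higher (red) or lower (blue) than in untreated wild type: in the average of the 3 heat-shocked groups, in each group, in each of the 3 groups at once, and with no overlap between the 11 heat-shocked and 5 untreated arrays. The average called 2026 and 2049, while 458 and 511 passed in all 3 groups.

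Among probe sets above the floor in every heat-shocked array, Hsp68 and Hsp26 had the largest smallest group fold changes, 9.66 and 7.21. Not all heat-inducible heat shock genes stood so high. Hsp83 rose by 1.31 on average, less than Taf7, a gene outside the list, at 4.07. All 12 heat-inducible genes on the array were higher in the averaged comparison and in all 3 groups. Their median fold change was 4.19 in each group. The median over 10119 named genes was -0.05, and 373 (3.69%) were higher in all 3 groups. For 11 of the 12 every heat-shocked array lay above every untreated one, as for 279 of the 10119 named genes. The F-test for a difference among the heat-shocked groups called 4 of them (Hsp23, Hsp67Bc, stv and Hsp83), against 5039 of the 10119 named genes (49.8%).

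Hsp68, an inducible Hsp70-family chaperone, stood at 16741, 16641, 16641 and 14921 in hsp-otd embryos and at 17938, 18086, 17684 and 17086 in hsp-Otx2 embryos. In heat-shocked wild type it stood at 16386, 17299 and 16471, and no untreated array was above the floor. It was at least 843-fold higher over the 3 groups, and at least 811-fold, 885-fold and 836-fold higher in hsp-otd, hsp-Otx2 and heat-shocked wild type. At this gene the 11 arrays labelled heat-shocked stood apart from the 5 untreated ones without exception.

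Hsp70Bbb, of the main Hsp70 family, had 5709, 5068, 4669 and 4983 in hsp-otd. It had 3926, 3981, 3022 and 3623 in hsp-Otx2, and 5798, 7054 and 6385 in heat-shocked wild type. Of the 5 untreated arrays 3 were above the floor, at 92.4, 200 and 135. The averaged fold change was 6.28 (SE 0.43, limma adjusted p = 8.76e-09), and the F-test did not pass (adjusted p = 0.491). Near-identical Hsp70 copies can share this probe set, so its signal may come from several of them.

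Among the small heat shock proteins, Hsp22, a mitochondrial member, had 22982, 21125, 21023 and 22348 in hsp-otd and 23914, 25168, 22818 and 24330 in hsp-Otx2. It had 19912, 20558 and 17804 in heat-shocked wild type, against 308, 466, 484, 193 and 246 in untreated wild type. The groups were far apart, with an averaged fold change of 6.09 (SE 0.16, limma adjusted p = 5.61e-14).

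Hsp26 had 9103, 6550, 6029 and 6762 in hsp-otd, 13530, 13456, 5336 and 10144 in hsp-Otx2, and 14536, 13590 and 15052 in heat-shocked wild type. Only 2 untreated arrays were above the floor, at 183 and 164. Its averaged fold change was 7.72 (SE 0.49, limma adjusted p = 3.45e-09), a value that depends on the floor. Array 3 of hsp-Otx2 was the lowest heat-shocked value for Hsp26, and also for Hsp27, at 13147 against 16386 to 23501 in the other 10 arrays.

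Hsp27 rose by 4.51 (SE 0.11) to a heat-shocked level of 19417, against 853 in untreated wild type, and Hsp23 by 5.01 (SE 0.15) to 15576, against 483. For Hsp23 the heat-shocked levels were 12183 in hsp-otd, 17140 in hsp-Otx2 and 18099 in heat-shocked wild type, and the F-test passed (limma adjusted p = 0.047). Hsp67Bc was higher by 3.03 (SE 0.06), Hsp67Ba by 2.64 (SE 0.28) and Hsp67Bb, named CG4456 in the gene table, by 0.91 (SE 0.17). Hsp67Bb was the 1 gene of the 12 with overlap. Its lowest heat-shocked value was 637, in heat-shocked wild type array 2, and its highest untreated value 639.

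Partners of the large chaperones moved with them. DnaJ-1, the inducible Hsp40 that feeds clients to Hsp70, stood between 14742 and 21125 in the heat-shocked arrays and between 826 and 1459 in the untreated ones, a fold change of 3.87 (SE 0.11). The BAG-family co-chaperone stv had levels of 5937 in hsp-otd, 3119 in hsp-Otx2 and 5759 in heat-shocked wild type, against 617 in untreated wild type. Its fold changes were 3.27, 2.34 and 3.22, and they differed among the groups (F-test adjusted p = 4.79e-05). Hsp83, the Hsp90 of flies, was already bright without heat, with a level of 7662, and rose by 1.31 (SE 0.08, limma adjusted p = 2.03e-09). Its group fold changes were 1.01, 1.40 and 1.53.

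**Figure D2:**
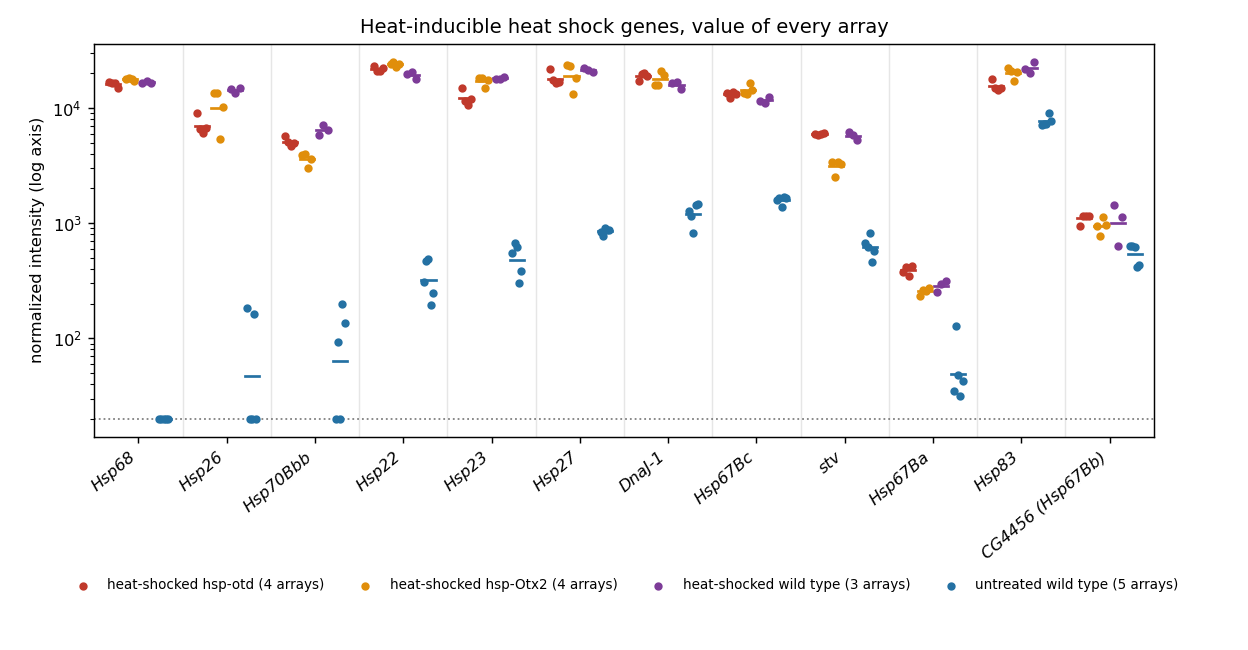
Normalized intensity (log axis) of the 12 heat-inducible heat shock genes in every array, by group. Points are arrays, short lines are group geometric means and the dotted line is the floor of 20. All genes but Hsp67Bb have every heat-shocked array above every untreated one.

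Constitutive chaperones and co-chaperones, which serve unstressed cells, shifted by less in the median. Both chaperone lists were drawn up with earlier results of these data known, and their members overlap in size: mora here rose by 3.02, the heat-inducible Hsp83 by 1.31. Of 22, 12 were higher and 1 lower in the averaged comparison, with a median of 0.67, and 8 were higher in all 3 groups. Among named genes the background was 16.4% higher and 17.9% lower, and 3.69% higher in all 3 groups. In hsp-Otx2 alone 11 were higher and 5 lower, while none was lower in hsp-otd or heat-shocked wild type. The largest averaged rise among those named was that of mora, a CHORD-domain partner of Hsp90. It had 2407, 2879, 3036 and 2760 in hsp-otd, 1598, 1574, 1588 and 1636 in hsp-Otx2 and 1181, 1193 and 1136 in heat-shocked wild type. Untreated wild type had 208, 225, 194, 219 and 221. No groups of arrays overlapped, and the fold changes of 3.70, 2.91 and 2.46 differed (F-test adjusted p = 6.72e-08).

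Hsp110 (Hsc70Cb), a nucleotide exchange factor for Hsp70, rose by 2.08 (SE 0.07). The mitochondrial unfoldase ClpX rose by 2.06 (SE 0.20), to a level of 922 in heat-shocked embryos, against 221 in untreated ones. Cdc37, which brings kinases to Hsp90, and the DnaJ protein Droj2 rose by 1.23 (SE 0.07) and 1.27 (SE 0.08). Limma adjusted p-values of these genes ran from 1.68e-12 to 6.63e-07, and their fold changes differed among groups for Hsp110 and Cdc37 but not detectably for ClpX (F-test adjusted p = 0.675) and Droj2 (0.728).

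The CCT chaperonin, the cytosolic ring that folds actin and tubulin, rose on average but not evenly among the groups. All 8 subunits were higher in the averaged comparison, with a median of 0.56, yet only CCT2 and CCT8 passed in all 3 groups. Of all named genes, 16.4% were higher on average and 3.69% in all 3 groups. Median fold changes were 0.92 in hsp-otd, 0.09 in hsp-Otx2 and 0.66 in heat-shocked wild type. The F-test called all 8, and 49.8% of all named genes. For CCT1 the levels were 4048 in hsp-otd, 2115 in hsp-Otx2 and 3436 in heat-shocked wild type, against 2181 in untreated wild type. The fold change in hsp-Otx2 was -0.04 (SE 0.06, limma adjusted p = 0.621). CCT2 rose in each group, by 1.63, 0.80 and 1.14. Without normalization 2 of the 8 subunits were higher, as were 741 of the 10119 named genes.

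Among 25 stress regulators and stress kinase targets, 9 were higher and 4 lower on average, and 4 were higher and 1 lower in all 3 groups. The shares of all named genes were 16.4% and 17.9% on average, and 3.69% and 4.46% in all 3 groups. PEK, the kinase that phosphorylates eIF2alpha in endoplasmic reticulum stress, had 1273, 1278, 1278 and 1408 in hsp-otd and 2278, 2143, 2266 and 2255 in hsp-Otx2. It had 1140, 1021 and 792 in heat-shocked wild type. The untreated arrays stood at 156, 68, 230 and 208, with 1 at the floor. Its averaged fold change was 3.82 (SE 0.41, limma adjusted p = 1.62e-06). Ire1, the other endoplasmic reticulum sensor in the list, was above the floor in the hsp-otd (level 147) and hsp-Otx2 (676) arrays only. Its rise was at least 7.34-fold and at least 33.8-fold in these, and its heat-shocked and untreated wild-type arrays were all at the floor.

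The small Maf partner of the oxidative stress factor Cnc, maf-S, rose by 0.61 (SE 0.05) and passed in all 3 groups. Thor, the translation inhibitor 4E-BP, was lower on average by -0.70 (SE 0.07). It passed in hsp-otd (-0.72) and hsp-Otx2 (-1.13), with -0.25 and limma adjusted p = 0.0768 in heat-shocked wild type.

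Of 24 genes for ubiquitin, autophagy and aggregate clearance, 6 were higher and 7 lower, and 1 in each direction passed in all 3 groups. The shares of all named genes were 16.4% and 17.9%, and 3.69% and 4.46% in all 3 groups. The gene higher in all 3 groups was ref(2)P, the p62-type receptor that carries ubiquitinated aggregates into autophagy. It had 7533, 8986, 8986 and 8036 in hsp-otd, 7926, 7730, 9367 and 9367 in hsp-Otx2 and 7572, 6713 and 5440 in heat-shocked wild type, against 1079, 1622, 1108, 1312 and 1378 in untreated wild type. The averaged fold change was 2.59 (SE 0.10, limma adjusted p = 4.50e-12).

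Genes outside the chaperone system were among the largest rises shared by all 3 groups. M7BP, named for binding myosin, had probe set CG17984_at at 700 to 1249 in hsp-otd, 613 to 1352 in hsp-Otx2 and 1588 to 2042 in heat-shocked wild type, with no untreated array above the floor. This was at least 60.2-fold. The other probe sets that lead to M7BP, CG17983_at and CG2080_at, had averaged fold changes of 0.52 and -0.06 and did not pass (limma adjusted p = 0.417 and 0.872), so the probe sets disagree.

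AdamTS-A, an ADAMTS-type metalloprotease, had 568, 619, 600 and 511 in hsp-otd, 430, 375, 468 and 407 in hsp-Otx2 and 589, 701 and 823 in heat-shocked wild type. It was at the floor in every untreated array and so at least 27.6-fold higher. Taf7, a subunit of the general transcription factor TFIID, had levels of 2420, 2034 and 1695 in the heat-shocked groups and 121 in untreated wild type. Its averaged fold change was 4.07 (SE 0.33, limma adjusted p = 7.37e-08), with no detectable difference among the groups (F-test adjusted p = 0.635).

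Of 98 glutathione transferases and cytochromes P450, 22 were higher and 15 lower on average, near the 16.4% and 17.9% of all named genes. In all 3 groups 8 were higher and 3 lower, where 3.69% and 4.46% of named genes were. GstE3 had levels of 3431, 1376 and 1556 in the heat-shocked groups, against 682 in untreated wild type. GstE1 had 1947, 6292 and 2233, against 968. Of 21 redox enzymes, 7 were higher and 5 lower on average, and 2 were higher and 1 lower in all 3 groups, beside the same shares of named genes. The glutamate-cysteine ligase subunit Gclm, which sets glutathione synthesis, was among the 2 and rose by 0.93 (SE 0.06). Cyp18a1, which inactivates ecdysteroids, fell in each group, with an averaged fold change of -1.37 (SE 0.10, limma adjusted p = 1.66e-08).

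Of 23 genes of ecdysone synthesis and response 4 were higher and 4 lower, near the 16.4% and 17.9% of all named genes. The nuclear receptors Eip75B and Hr3 were the 2 that rose in all 3 groups, and Cyp18a1 was the 1 that fell. Of all named genes, 3.69% were higher and 4.46% lower in all 3 groups. Eip75B had levels of 1126, 877 and 925, against 347 in untreated wild type, a fold change of 1.48 (SE 0.11). Hr3 (probe set HR46_at) rose by 1.11 (SE 0.11), while its other probe set, CG12208_at, had 0.18 and did not pass (limma adjusted p = 0.71). The receptor ftz-f1, which follows them in the ecdysone cascade, differed in sign among the groups. It was at 61.4 in hsp-otd, 677 in hsp-Otx2 and 85.7 in heat-shocked wild type, against 414 in untreated wild type.

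The homeodomain cofactor hth was the 1 of 8 Hox genes and cofactors that was higher, on average and in all 3 groups. Of all named genes, 16.4% were higher on average and 3.69% in all 3 groups. It had 1546, 1558, 1629 and 1666 in hsp-otd, 824, 808, 952 and 971 in hsp-Otx2 and 1410, 1413 and 1476 in heat-shocked wild type, against 274, 316, 296, 168 and 320 in untreated wild type. The groups did not overlap, and the averaged fold change was 2.24 (SE 0.12, limma adjusted p = 6.60e-10).

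Digestive enzymes of the midgut were the tissue list with the most rises. Of 45 tested, 17 were higher and 6 lower on average (median 0.48), and 8 were higher in all 3 groups and none lower. The shares of all named genes were 16.4% and 17.9% on average, and 3.69% and 4.46% in all 3 groups. Medians were 0.30 in hsp-otd, 1.30 in hsp-Otx2 and 0.37 in heat-shocked wild type. In hsp-Otx2 on its own 21 were higher and 3 lower, where 18.6% and 22.9% of named genes were. The serine protease Jon65Aiv had 231, 369, 543 and 370 in hsp-otd, 1273, 1106, 1134 and 1226 in hsp-Otx2 and 320, 240 and 239 in heat-shocked wild type. With all untreated arrays at the floor it was at least 24.2-fold higher. Jon99Cii had levels of 773, 8889 and 1955, against 157. The summed intensity of the list was 17674 to 18777 in hsp-otd arrays, 55590 to 57772 in hsp-Otx2 arrays and 18964 to 24182 in heat-shocked wild type, against 13149 to 16929 in untreated wild type. In whole embryos, more cells of a type and more RNA per cell cannot be told apart, and the same holds for the falls described next.

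The response shared by all 3 groups was, on its lower side, led by genes of the cuticle. Of 101 late cuticle protein genes tested, 56 were lower and 2 higher on average, with a median of -0.78, and 41 were lower and 1 higher in all 3 groups. Among 10119 named genes, 17.9% were lower on average, and 451 were lower in all 3 groups (4.46%). For 39 of the 101 every heat-shocked array lay below every untreated one, as for 453 of the 10119 named genes. The summed intensity of the list was 122349 to 125293 in hsp-otd, 86453 to 92496 in hsp-Otx2 and 89347 to 95828 in heat-shocked wild type, against 227303 to 238981 in untreated wild type. These genes also rise as embryos age through the last stages, and the part of age in these falls was not tested.

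Vajk1, a cuticle gene, was the largest fall by its smallest group fold change. It stood at 25.5, 123, 133 and the floor in hsp-otd, at 110 in 1 hsp-Otx2 array with the other 3 at the floor, and at the floor in all heat-shocked wild-type arrays. Untreated wild type had 2279, 2296, 2220, 2932 and 2899. The averaged fold change was -6.29 (SE 0.49, limma adjusted p = 4.11e-08), a value set in part by the floor, and in heat-shocked wild type it was at least 125-fold lower.

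TwdlW, of the Tweedle family of cuticle proteins, had 253, 230, 218 and 236 in hsp-otd and 229, 336, 391 and 285 in hsp-Otx2. It was at the floor in heat-shocked wild type, against 3695, 3930, 3397, 3786 and 3963 in untreated wild type. The fold changes were -4.0 and -3.62 in the 2 transgenic lines, and heat-shocked wild type was at least 187-fold lower. TwdlD, of the same family and bright in every group, had levels of 1903, 1016 and 1285, against 11620. Its averaged fold change was -3.10 (SE 0.06, limma adjusted p = 4.47e-16). TwdlQ, at the floor in 1 hsp-Otx2 and 1 heat-shocked wild-type array, fell by 4.17 on the log2 scale, with 101 to 156 in hsp-otd against 1121 to 1279 in untreated wild type.

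Genes of chitin binding, synthesis and turnover followed. Of 25, 13 were lower and 3 higher on average, with a median of -0.70, and 9 were lower in all 3 groups. Of all named genes, 17.9% were lower and 16.4% higher on average, and 4.46% were lower in all 3 groups. obst-A, a chitin-binding protein of the apical matrix, had 1901, 1813, 1856 and 1867 in hsp-otd, 2609, 2667, 2635 and 2564 in hsp-Otx2 and 2459, 3136 and 2345 in heat-shocked wild type. It had 5954, 5751, 6005, 7899 and 8149 in untreated wild type, so no group overlapped it. Gasp, a chitin-binding protein of the tracheal tube, fell by 0.88 (SE 0.06), and the related obst-E had -4.11 (SE 0.46), which depends on the floor since only 3 of its 11 heat-shocked arrays exceeded it. The chitinase Cht6 had an averaged fold change of -1.85 (SE 0.11) at its brightest probe set, CG2989_at. Its probe sets CG15313_at and CG15314_at had 0.73 and -0.18 and did not pass (limma adjusted p = 0.30 and 0.326). The chitin-binding Peritrophin-A had levels of 68.8, 44.3 and 36.9, against 826.

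Of 15 tracheal genes 3 were lower and 1 higher, each of them in all 3 groups. Of all named genes, 17.9% were lower and 16.4% higher on average, and 4.46% and 3.69% in all 3 groups. Osi18 and Osi19 of the Osiris family, which is active in cuticle-forming epithelia, were among the lower ones. Osi18 had levels of 443, 997 and 1065, against 3116 in untreated wild type. Osi19 had 1428, 4477 and 4067, against 7806. Both fell furthest in hsp-otd, with fold changes of -2.81 and -2.45, and differed among the groups (F-test adjusted p = 5.71e-07 and 5.46e-10).

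Several of the largest falls shared by all 3 groups were in genes not on the cuticle or chitin lists. Nlg4, a neuroligin of the synapse, had 474, 113, 357, 138 and 189 in untreated wild type and none of the 11 heat-shocked arrays was above the floor, which makes it at least 10.9-fold lower. Its probe set CG15683_at had 0.64 and did not pass (limma adjusted p = 0.268). For thw and EbpIII, too, no heat-shocked array was above the floor, and the falls were at least 9.33-fold and 7.73-fold. PIP5K59B, a phosphatidylinositol phosphate kinase, had a level of 297 in untreated wild type and 20, 31.1 and 26 in the heat-shocked groups. CG12164, with no symbol of its own, had 45.7, 44.5 and 34.5, against 1265. The phenylalanyl-tRNA synthetase gene beta-PheRS had 41.4, 39.1 and 69.4, against 461, with single arrays as high as 292 in hsp-Otx2. Because arrays set to the floor do not vary, limma's errors and p-values for these dim genes can be too small.

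**Figure D3:**
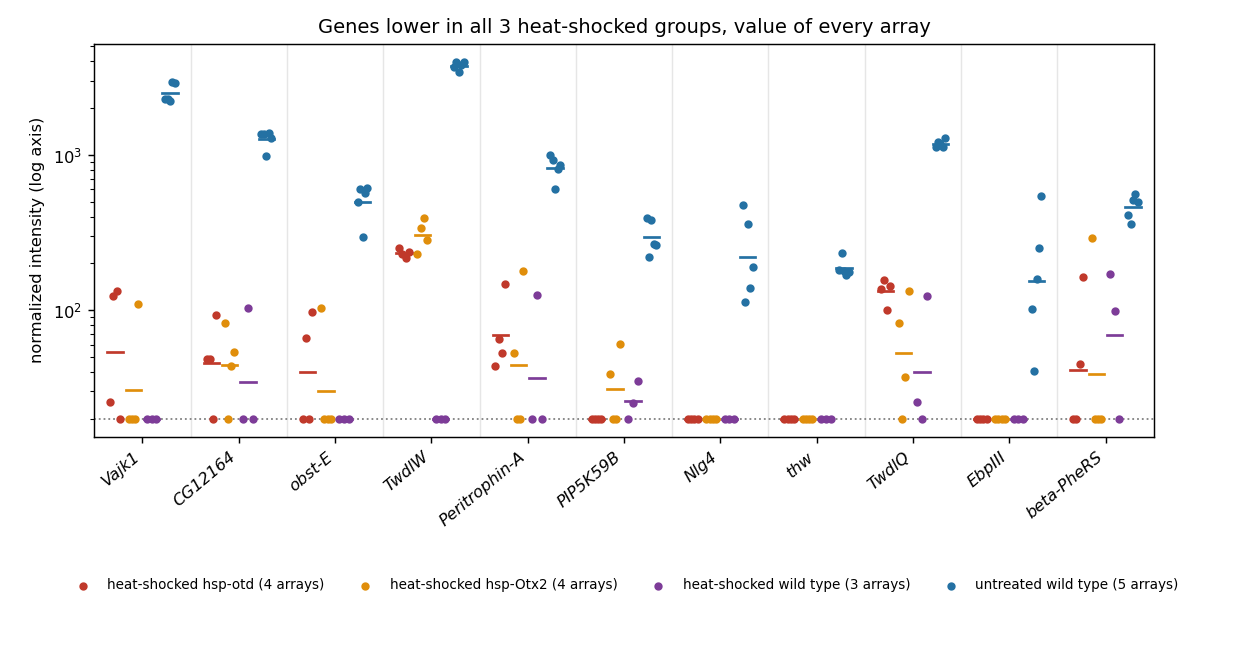
Normalized intensity (log axis) in every array of the 10 named genes with the largest falls in all 3 heat-shocked groups and of CG12164. Points are arrays, short lines are group geometric means and the dotted line is the floor of 20. Untreated values of Vajk1 run from 2220 to 2932, and those of EbpIII from 40.7 to 541.

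Genes of Notch signalling were lower on average in 15 of 25 cases and higher in 2, with a median of -0.76. Of all named genes, 17.9% were lower and 16.4% higher on average, and 4.46% were lower in all 3 groups. Only 5 of the 25 Notch genes were lower in all 3 groups, and the group medians were -0.04 in hsp-otd, -1.80 in hsp-Otx2 and -0.63 in heat-shocked wild type. Brd, a Bearded-family antagonist of neuralized, had 2382, 2136, 2175 and 2371 in hsp-otd, 498, 553, 437 and 510 in hsp-Otx2 and 1379, 1220 and 1502 in heat-shocked wild type, against 3701, 4342, 4201, 4155 and 4263 in untreated wild type. The 4 groups did not overlap. Its relative E(spl)m4-BFM, a Notch target, had levels of 2304, 310 and 1208, against 3270. The Notch target repressor E(spl)mgamma-HLH had 2948, 651 and 1286, against 3533. For the Bearded-family gene Ocho the fold changes were -0.75, -2.72 and -2.19 at probe set CG3396_g_at. Its other probe set, CG3396_at, had an average of -0.42 (limma adjusted p = 0.0275) and did not pass in all 3 groups. The F-test called 23 of the 25, and 49.8% of all named genes.

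Mitochondrial respiration was lower in 42 of 72 genes and higher in 1, by little. The median was -0.26, and 9 genes were lower in all 3 groups. Of all named genes, 17.9% were lower and 16.4% higher on average, and 4.46% were lower in all 3 groups. ND-MWFE, a subunit of complex I, had 2056, 1885, 2037 and 2017 in hsp-otd, 1919, 1951, 1787 and 1781 in hsp-Otx2 and 1785, 1444 and 2509 in heat-shocked wild type, against 3528, 3943, 3645, 3742 and 3692 in untreated wild type. The fold change was -0.96 (SE 0.09, limma adjusted p = 3.48e-07). ND-PDSW, also of complex I, fell by 0.46 (SE 0.04). The count depends on the scaling: 34 genes were lower after median scaling and 4 without normalization.

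The proteasome, which degrades what chaperones cannot refold, did not move as a block. Of 32 subunits 5 were higher and 16 lower on average, beside 16.4% and 17.9% of all named genes. In all 3 groups 1 was higher and 3 lower, beside 3.69% and 4.46% of named genes. Medians were 0.09 in hsp-otd, -0.56 in hsp-Otx2 and -0.32 in heat-shocked wild type. The lid subunit Rpn6 was the 1 higher in all 3 groups, at 5289, 2748 and 3637, against 2135 in untreated wild type. The ATPase Rpt2 was among the 3 lower ones, at 1366, 738 and 1193, against 1715. After median scaling 12 subunits were lower, and without normalization 1.

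Cell cycle and replication genes also divided by group. Of 38, 7 were higher and 10 lower on average, 1 passed in each direction in all 3 groups, and the F-test called 35. Of all named genes, 16.4% were higher and 17.9% lower on average, and 3.69% and 4.46% in all 3 groups. The F-test called 49.8% of them. The medians were 0.41 in hsp-otd, -0.51 in hsp-Otx2 and -0.36 in heat-shocked wild type. The G1 cyclin CycD rose in each, with fold changes of 1.00, 2.01 and 0.53. The mitotic cyclin CycB was at 5446, 15460 and 3228, against 2805 in untreated wild type, and did not pass in heat-shocked wild type (limma adjusted p = 0.293). PCNA, the replication clamp, was at 1429, 495 and 522, against 1232. Without normalization 5 of the 38 were lower.

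**Figure D4:**
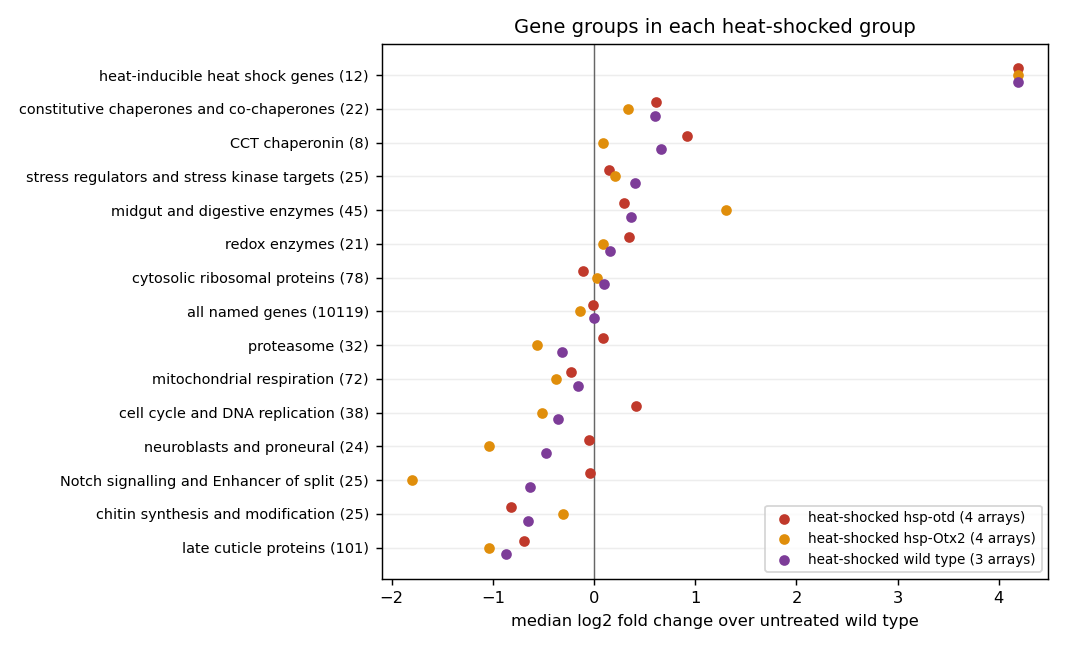
Median log2 fold change over untreated wild type of the genes of each group of genes (number tested in brackets), for hsp-otd (red), hsp-Otx2 (orange) and heat-shocked wild type (purple). The 12 heat-inducible genes have a median of 4.19 in each group, while Notch signalling runs from -0.04 in hsp-otd to -1.80 in hsp-Otx2.

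Lists of general cell functions gave the following counts on average, beside 16.4% higher and 17.9% lower among all named genes. Of 78 cytosolic ribosomal protein genes 2 were higher and 1 lower, with a median of 0.01, and none passed in all 3 groups. Translation initiation factors had 9 higher and 5 lower of 32, and ribosome biogenesis 8 and 7 of 30. RNA polymerase II and mRNA processing had 12 and 10 of 43, and its groups went different ways. In hsp-otd 20 were higher and 3 lower (16% and 14.5% of named genes), and in heat-shocked wild type 3 and 20 (9.84% and 13.3%). Glycolysis had 2 higher and 3 lower of 11, and histones 1 and 0 of 5. Apoptosis had 1 and 0 of 9.

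Innate immunity had 8 higher and 2 lower of 26, with a median of 0.28, where 16.4% and 17.9% of named genes were higher and lower. In all 3 groups 2 were higher and 1 lower, where 3.69% and 4.46% of named genes were. Without normalization 6 and 2 were called on average.

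The other tissue and patterning lists are given by their counts on average, beside 16.4% higher and 17.9% lower among all named genes. In all 3 groups 3.69% of named genes were higher and 4.46% lower. Sarcomere and muscle had 1 higher and 13 lower of 33 (3 lower without normalization). Neuroblast and proneural genes had 3 and 12 of 24, with a median of -0.60 and group medians of -0.05, -1.04 and -0.47. Neurons and synapses had 5 higher and 2 lower of 25. The cell adhesion receptor Dscam1 was among the 3 higher in all 3 groups, by 1.76 (SE 0.30). Gad1, which makes the transmitter GABA, was the 1 lower in all 3, with no heat-shocked array above the floor, at least 5.26-fold lower. Glia had 1 and 3 of 12, haemocytes and basement membrane 1 and 4 of 18, and fat body and yolk 1 and 0 of 9. Head and brain patterning had 1 and 3 of 18, of which the higher gene was oc, blastoderm segmentation 3 and 5 of 24, and segment polarity 6 and 5 of 25.

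Germ line and maternal genes had 7 higher and 7 lower of 25, beside 16.4% and 17.9% of all named genes. In all 3 groups 1 was higher and 3 lower, beside 3.69% and 4.46% of named genes. The germ cell repressor pgc was the 1 that was higher in all 3 groups, with levels of 426, 455 and 222, against 121. The vitelline membrane gene Vm26Ab was among the 3 lower in all 3, with 535, 549 and 640, against 1255.

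Levels differed among the heat-shocked groups for much of the array. Neither transgenic line had an untreated control, so a different heat response and a difference between the lines cannot be told apart. The F-test, in which the untreated arrays cancel out, called 5957 probe sets (48.4%). It called 1442 of those higher on average (71.2%) and 1370 of those lower (66.9%). Of the probe sets that passed in all 3 groups it left 216 higher and 210 lower ones uncalled. The largest of the 3 fold changes was that of hsp-Otx2 for 217 of the 458 higher and 230 of the 511 lower probe sets.

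Among genes higher in all 3 groups, the smallest F-test p-values belonged to RNA-binding proteins and a digestive enzyme. The RNP protein tral had 783, 767, 767 and 860 in hsp-otd, 2063, 2231, 2233 and 2183 in hsp-Otx2 and 620, 557 and 549 in heat-shocked wild type, against 430, 366, 393, 413 and 399 in untreated wild type. Its fold changes were 0.99, 2.45 and 0.52 (F-test adjusted p = 3.41e-10). The repressor of maternal mRNAs smg had levels of 307, 2465 and 332, against 177, at its brightest probe set, with an averaged fold change of 1.83. At its other probe set, SMG_at, the averaged fold change was 4.77. The TIA-type RNA-binding protein Rox8 had 2703, 5886 and 2496, against 1992. The trypsin gammaTry had 686, 4032 and 987, against 402. In each of these hsp-Otx2 stood above the other heat-shocked groups in every array.

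Among genes lower in all 3 groups the order varied. Muc91C, a mucin, had 520, 597, 501 and 566 in hsp-otd and 832, 496, 633 and 758 in hsp-Otx2. It was at the floor in heat-shocked wild type, against 2650, 2166, 3158, 2657 and 2762 in untreated wild type. Ccp84Ac, a cuticle protein, was also at the floor in heat-shocked wild type alone. It was at least 107-fold lower there, against fold changes of -3.13 in hsp-otd and -1.53 in hsp-Otx2. The cuticle protein Cpr65Ea had levels of 2552, 739 and 384, against 12980, and its hsp-otd level was the highest of the heat-shocked groups.

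For other genes that passed on average, the 3 group fold changes did not share a sign. Drsl5, a Drosomycin-like peptide, had 191, 205, 177 and 191 in hsp-otd and 76.8, 165, 103 and 105 in hsp-Otx2. It had 6519, 6906 and 6967 in heat-shocked wild type, against 5925, 5323, 5344, 5463 and 5301 in untreated wild type. The fold changes were -4.84 and -5.66 in the transgenic lines, with an average of -3.40, and heat-shocked wild type had 0.31 (SE 0.16, limma adjusted p = 0.193). GstE13 was at the floor in hsp-Otx2 alone, at least 32.6-fold lower there, with 0.12 in hsp-otd, which did not pass (limma adjusted p = 0.642), and -0.83 in heat-shocked wild type.

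The p38 kinase activator lic had levels of 101, 1457 and 20, against 25.8 in untreated wild type. Its negative sign in heat-shocked wild type came from arrays at the floor and did not pass (limma adjusted p = 0.622). The maternal thioredoxin dhd had 207, 1278 and 20, against 75.6, and passed as higher in both transgenic lines and as lower in heat-shocked wild type. The dehydrogenase Rdh1 had 1647, 27.8 and 429, against 495. It passed as higher in hsp-otd and as lower in hsp-Otx2, but not in heat-shocked wild type (limma adjusted p = 0.723). When hsp-Otx2 was left out of the average, dhd had -0.23 and Rdh1 0.76, both of the opposite sign and not past the threshold (limma adjusted p = 0.731 and 0.0658).

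The Hedgehog receptor ptc was above the floor in the hsp-otd arrays only, at 366, 404, 438 and 528. The maternal mRNA localiser exu was above it in hsp-Otx2 only, at 287, 193, 252 and 251. Their averages therefore rest on 1 group each. The cellularisation gene slam had levels of 319, 2218 and 590, against 215, and passed in hsp-Otx2 and heat-shocked wild type. The digestive protease Jon99Ciii passed in all 3 groups and was at least 12.2-fold higher in hsp-otd, 379-fold in hsp-Otx2 and 33.8-fold in heat-shocked wild type.

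**Figure D5:**
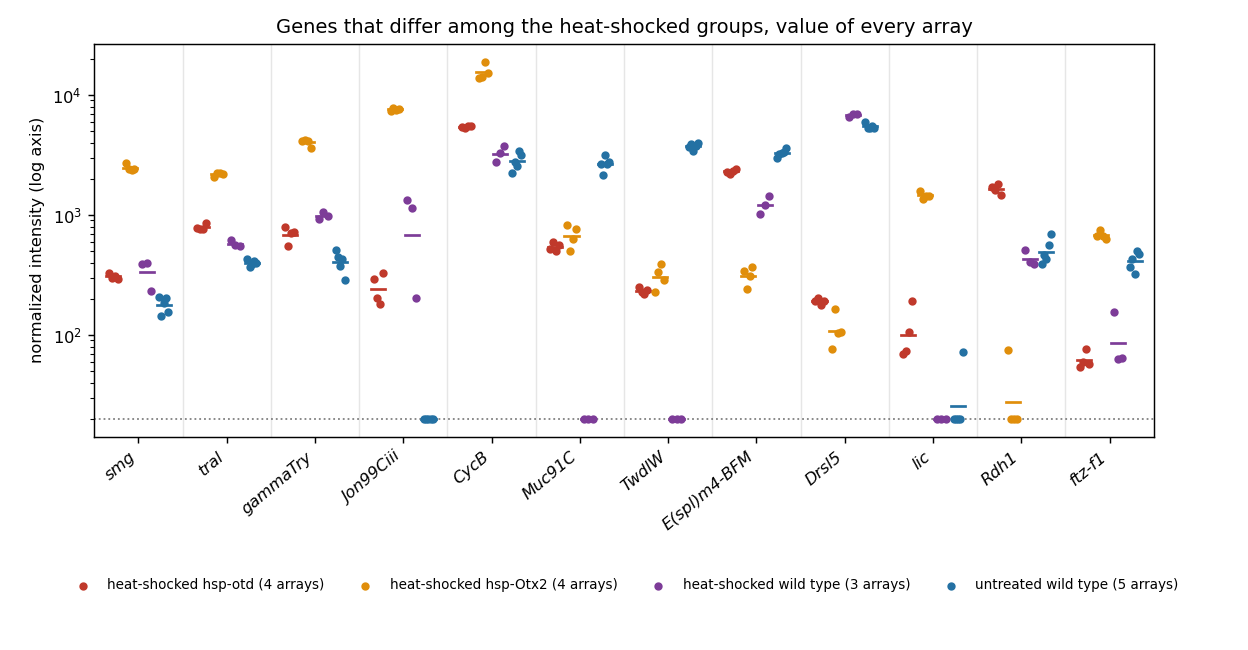
Normalized intensity (log axis) in every array of 12 genes whose level differed among the heat-shocked groups by the F-test. Points are arrays, short lines are group geometric means and the dotted line is the floor of 20. Drsl5 runs from 6519 to 6967 in heat-shocked wild type and reaches at most 205 in either transgenic line.

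By chromosome arm, probe sets higher in all 3 groups made up 5.65% of 2282 on 3L, 3.67% of 2864 on 3R, 3.56% of 2278 on 2R, 3.19% of 1973 on the X and 2.84% of 2039 on 2L. Those lower in all 3 made up 5.0%, 4.16%, 4.3%, 3.95% and 3.92% in the same order. These are counts over genes that share clusters, such as the heat shock genes of 67B, and carry no test.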

How the data were processed

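The submitters deposited 1 table of linear intensity per probe set and array, per the labels' titles matched to its columns. No source used here gives the image reading, the summary of probes or the scaling. Between 18.3% and 24.6% of an array's values were negative. Per the labels' protocols, 25 µg of RNA went into T7-primed cDNA for each array. Precision is limited by the number of arrays.

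Values of 14038 probe sets (32 controls left out) were quantile normalized, set to no less than 20 (the floor) and put on the log2 scale. Testing took in the 12301 that exceeded the floor on 3 or more arrays and left out 1737. limma 3.58.1 in R 4.3.3 (lmFit, 1 coefficient per group, eBayes with a trend) gave the average of the 3 heat-shocked groups over untreated wild type, each group over untreated wild type, and an F-test among the heat-shocked groups, with 12 residual degrees of freedom. Adjustment was by Benjamini-Hochberg. Where no array of a group exceeded the floor, a fold is given as "at least" the other group's level over the floor. The fit was first tested on simulated data, with changes of 0.5, 1 and 2 (log2) shared by the 3 groups in 67, 67 and 66 of 12301 probe sets. The averaged comparison recovered 28.4%, 44.8% and 83.3% of them, and 11.9%, 34.3% and 56.1% passed in all 3 groups. Of 112 called on average, 8 were false. Far more probe sets were called in the real data, so these shares need not hold there. A probe set that failed in 1 group may still share the change.

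Probe-set identifiers were matched to RefSeq gene names, which gave 1 symbol to 13089 probe sets, several to 458 and none to 491. Each gene entered the 35 gene lists with its brightest probe set. The members and lists were chosen with earlier results of these data known. Genes were picked by a rule: oc, the 10 largest shared changes in each direction, the smallest F-test p-values, the largest opposite-sign spreads, up to 5 members per list by adjusted p, and all heat-inducible genes. The text names 87 of the 178 it gave. No genome of the arrays' build was used, so no coordinates or sequences are printed. Alternatives covered the normalization, the floor, the filter, array weights, the spread per group, the moderation, the replicate number as a block, the weighting of groups, the arrays fitted, and leaving out each array or group.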

Additional observations from a re-analysis of the deposited data

Results flagged for a closer look

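Of the 87 genes named, 59 differed among the 3 heat-shocked groups by limma's F-test, with Benjamini-Hochberg adjusted p-values of at most 0.049. The largest and smallest of a gene's 3 group log2 fold changes differed by 6.47 for oc, 6.19 for lic, 6.0 for dhd, 5.97 for Drsl5, 5.89 for Rdh1 and 5.21 for Ccp84Ac. This difference was 5.14 for GstE13, 5.08 for Ire1, 5.06 for Muc91C, 4.96 for Jon99Ciii, 4.43 for ptc and 3.93 for TwdlW. It was 3.60 for exu, 3.52 for Jon99Cii, 3.46 for ftz-f1, 3.00 for smg, 2.89 for E(spl)m4-BFM and 2.80 for slam. Next came differences of 2.73 for Cpr65Ea, 2.56 for gammaTry, 2.26 for CycB, 2.18 for both E(spl)mgamma-HLH and Brd, and 2.17 for Jon65Aiv. Smaller differences were 1.97 for Ocho, 1.92 for tral, 1.69 for GstE1, 1.65 for Osi19, 1.53 for PCNA and 1.48 for CycD. There followed 1.32 for GstE3, 1.26 for Osi18, 1.24 for mora, 1.24 for Rox8, 1.04 for pgc and 1.00 for M7BP. The difference was 0.94 for Rpn6, 0.94 for CCT1, 0.93 for stv, 0.91 for TwdlD, 0.89 for Rpt2 and 0.89 for Thor. Lower in the order were 0.85 for hth, 0.83 for CCT2, 0.83 for Cyp18a1, 0.75 for Cht6, 0.74 for AdamTS-A and 0.67 for Cdc37. It came to 0.63 for ND-PDSW, 0.61 for Gclm, 0.60 for CCT8, 0.57 for Hsp23, 0.57 for Hsp110 and 0.52 for Hsp83. Among the least were 0.50 for obst-A, 0.45 for Gasp, 0.39 for ref(2)P, 0.29 for Hsp67Bc and 0.26 for maf-S. For lic, dhd, Ccp84Ac, GstE13, Ire1, Muc91C, ptc, TwdlW and exu no array of at least 1 heat-shocked group was above the floor, so their differences are lower bounds with no order among them. Those of oc and Rdh1 depend on the floor too.

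A single array stood apart from the others of its group in 33 of 241 tests of 1 gene in 1 group. Chance would give about 1 in 20, but not where all other arrays of a group are at the floor. There any value above the floor stands apart, as for oc, lic, Vajk1, beta-PheRS, Rdh1 and, in hsp-Otx2, obst-E. The 33 therefore cannot be weighed against that rate. Values at the floor count as 20 here, and the intensities given are normalized. Of the 5 untreated arrays, the highest stood apart for oc at 21.2, thw at 234, lic at 71.6, Drsl5 at 5925 and Gad1 at 210. Of the 4 hsp-otd arrays, the lowest stood apart for Hsp68 at 14921, CG4456 at 950, Cdc37 at 2451, ND-PDSW at 2530 and E(spl)mgamma-HLH at 2664. The highest hsp-otd array did so for Taf7 at 2602, Rox8 at 2919 and PEK at 1408. Of the 4 hsp-Otx2 arrays, the highest stood apart for smg at 2689, Vajk1 at 110, obst-E at 104, beta-PheRS at 292, Rdh1 at 74.6 and CCT2 at 3779. The lowest hsp-Otx2 array did so for gammaTry at 3648, stv at 2537, PEK at 2143 and Rpt2 at 636. The lowest untreated array did so for obst-E at 297, CG12164 at 985, Ccp84Ac at 1416, Brd at 3701, Hsp67Bc at 1379, CCT8 at 3419, GstE3 at 505, GstE1 at 614, TwdlD at 10443 and hth at 168.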

How the results depend on the processing

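Counts kept within 1.5 times of those given under median scaling, a floor of 50, both other filters on dim probe sets, array weights and both other forms of moderation, and when any single array was left out. The largest effects came without normalization: 911 higher and 822 lower on average, 466 lower in hsp-otd, 1116 lower in hsp-Otx2, 189 higher in heat-shocked wild type, 108 higher and 177 lower in all 3 groups, and 83 higher and 191 lower without overlap. With 1 variance factor per group, heat-shocked wild type had 705 higher and 895 lower, and with only the groups compared in the fit 624 and 819, with 245 higher in all 3 groups. Equal weight per array, which takes the 11 heat-shocked arrays as 1 group, gave 982 higher and 1036 lower on average. An adjusted p below 0.01 in each comparison left 259 higher and 306 lower in all 3 groups. Of the 969 probe sets that passed in all 3 groups, 742 also did so under median scaling, 275 without normalization and 621 with only the groups compared. Chosen after seeing the data, untreated arrays 1 to 3 as the only controls gave 561 higher without overlap, and arrays 4 and 5 gave 706 higher and 1177 lower, with fewer arrays to overlap. The cause of the other shifts was not tested.

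Leaving out each array in turn gave 1847 to 2147 higher and 1808 to 2120 lower on average, and 389 to 476 higher and 448 to 509 lower in all 3 groups. It gave 1534 to 2081 and 1367 to 1803 for hsp-otd, 2084 to 2399 and 2319 to 2751 for hsp-Otx2, and 1023 to 1373 and 1267 to 1573 for heat-shocked wild type. The F-test called 5354 to 6126, and 346 to 458 higher and 520 to 632 lower probe sets did not overlap. Of the 87 named genes, 75 kept their call and sign in the averaged comparison under every setting. The exceptions were dhd, which had -0.23, and Rdh1, which had 0.76, with hsp-Otx2 left out, and 10 genes that no longer passed under some setting: lic, CCT1, CCT8, GstE13, PCNA, exu, ptc, ftz-f1, Rpt2 and ND-PDSW. Both dhd and Rdh1 also failed under other settings. Among these were equal weight per array (limma adjusted p = 0.368 and 0.604) and no normalization (0.0672 and 0.0837). Rdh1 failed without untreated array 5 as well (-0.76, limma adjusted p = 0.0568).

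The replicate numbers of the titles did not pair the arrays, with correlations from -0.071 to 0.115 between same-numbered arrays. With the replicate block, 1955 probe sets were higher and 1915 lower on average, 446 and 432 in all 3 groups, and the F-test called 5572. By group the counts were 1893 and 1734 in hsp-otd, 2282 and 2581 in hsp-Otx2, and 1054 and 1112 in heat-shocked wild type. Intensities at the floor limit what can be measured: 75.1% of the deposited values exceeded it. The 1737 dim probe sets were not tested.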
